A study of Peromyscus maniculatus with 16 samples.

Results

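The genes described are enzymes of the methionine cycle, of the sarcosine branch attached to it and of transsulfuration, in the livers of deer mice. The list held 9 genes, of which 7 (Mat1a, Mat2a, Gnmt, Sardh, Dmgdh, Cbs and Cth) were measured among the 16910 genes of the count table. Ahcy and Bhmt were not analysed here. The genes were taken by pathway, and the pathway was chosen by the measured difference in Gnmt between HFD livers without steatosis and control livers, with the difference between steatotic and control livers also known. The values of the 7 genes in both comparisons with the controls are therefore given as descriptions, and their counts of calls there carry no weight as a test.

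RNA was sequenced from the livers of 16 outbred deer mice (Peromyscus maniculatus), each a separate animal and 10 months old at termination. Regular diet was fed to 6 animals (C). The other 10 received HFD, and by liver histology 5 of them had no steatosis (NS) and 5 had steatosis (S). Feeding lasted 28 weeks. Of the 16 animals, 13 came from the BW stock and 3 from the SM2 stock, with 1 SM2 animal in each group, namely C 10876, NS 10865 and S 10880. The female animals were 35955, 35982 and 35990, all in S, so sex and steatosis cannot be told apart beyond the 2 male S animals, 10880 and 36016. A fold change of S fitted with sex as a covariate therefore rests on the same 2 S animals as one from males alone.

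Methionine adenosyltransferases join methionine to ATP and form S-adenosylmethionine (SAM), the methyl donor of most methylation reactions. In hepatocytes, glycine N-methyltransferase uses surplus SAM to turn glycine into sarcosine, and mitochondrial dehydrogenases strip methyl groups from dimethylglycine and sarcosine and pass them to folate. The homocysteine left after methyl transfer is either methylated back to methionine or committed to cysteine by transsulfuration. The liver carries out most of the body's methionine breakdown, and the zone around the portal vein and that around the central vein differ in their amino acid enzymes.

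Total counts per animal lay between 6374518 and 11349971 in C (median 9299003.5), between 7336900 and 9362184 in NS (median 8258292) and between 4640733 and 10892425 in S (median 8113314). Levels are given as CPM, counts scaled to a common library size with the TMM correction for library composition. The lowest count of any of the 7 genes except Mat2a in any animal was 644, whereas Mat2a had 39 to 241 counts, so that counting error weighs on Mat2a alone. Between the counts of any pair of animals in a group, chi-square divided by its degrees of freedom was at least 23.8, and each animal was counted as 1 replicate. CPM are not corrected for transcript length, and levels of different genes are compared only to name the gene of a list with the highest mean over the 16 animals.

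The livers carried the markers of hepatocytes. The summed level of 8 hepatocyte markers (highest mean over the 16 animals Apoa1, in C alone Ttr) was 41170 to 76360 CPM over the 16 animals. Among the S animals, 35990 and 36016 stood apart in proliferation markers (highest mean Top2a), with summed levels of 29.6 and 57.3 CPM, against 1.39 to 7.33 CPM in the other 14 animals. S animal 36016 also had 2058 CPM of Col1a1, against 3.26 to 17 CPM in the others, while its other 6 stellate cell markers summed to 337 CPM, within the range of the other animals (192 to 504 CPM). S animal 35990 had the highest summed levels of lymphocyte markers (45.9 CPM), macrophage markers (598 CPM) and bile duct markers (35 CPM). The next highest level of bile duct markers was 18.6 CPM, in NS animal 35987. Single genes weighed heavily in these sums. Those of highest mean were Ptprc, Marco and Spp1 in the same order, with maxima in S of 33.6, 288 and 25.7 CPM. Whether 35990 held more of these cells was not tested.

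Mat1a, the catalytic subunit of the liver form of methionine adenosyltransferase, ranged in C from 2535 to 4042 CPM with a median of 3157 CPM (n = 6). In NS, Mat1a was at 1626, 2318, 2321, 2475 and 3129 CPM, and in S at 1615, 2279, 2356, 2599 and 2964 CPM. The SM2 animal was the lowest of each group. Of the NS animals 4 of 5 lay below every C animal, and of the S animals 3 of 5, while the rest overlapped with C. The log2 fold change of Mat1a was -0.46 (SE 0.19) in NS vs C and -0.47 (SE 0.19) in S vs C, a level 1.38-fold lower in each.

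Mat2a, the form of the enzyme found in most tissues outside the liver, was at 10.8 to 20.1 CPM in C, with a median of 13.6 CPM (n = 6). In NS it was at 7.19, 9.63, 12.1, 13.7 and 17.3 CPM. In S it was at 7.23, 11.2, 11.4, 20.9 and 45.2 CPM. The groups overlapped, and the highest values of all animals were in S, in 36016 and 35990, the same animals that stood apart in proliferation markers. The log2 fold change of Mat2a was -0.26 (SE 0.38) in NS vs C and 0.41 (SE 0.37) in S vs C. Without S animal 36016 alone it was -0.17 in S vs C. Without both 35990 and 36016, an alternative added once the data had been seen, it was -0.52 in S vs C. The part of proliferating or other cells in the level of Mat2a was not tested.

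The ratio of Mat1a counts to Mat2a counts within an animal, which is not corrected for length and is read only between animals, had a group median of 234 (C), 226 (NS) and 144 (S). It ranged from 147 to 375 in C and from 134 to 241 in NS. In S the range was wider, from 65.5 in 36016 and 113 in 35990 to 360 in 35982, and it covered that of NS.

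Gnmt, which methylates glycine at the expense of SAM, was lower in both HFD groups than in C by more than any other of the 7 genes. In C it ranged from 1556 to 4806 CPM with a median of 2373 CPM (n = 6). In NS it was at 305, 383, 482, 617 and 1046 CPM, and in S at 230, 391, 630, 630 and 771 CPM. All 10 HFD animals lay below all 6 control animals, and NS and S overlapped over most of their range. Within C, the SM2 animal 10876 stood above the others, and the next highest value was 2679 CPM. The SM2 animals had 4806 CPM (C), 1046 CPM (NS) and 230 CPM (S), so that the SM2 animal was the highest of C and NS and the lowest of S. In S the 3 females lay above the 2 males.

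The log2 fold change of Gnmt was -2.19 (SE 0.38) in NS vs C, or 4.57-fold lower, and -2.29 (SE 0.38) in S vs C, or 4.88-fold lower. Both comparisons share the C animals. In the BW animals alone the values were -2.28 and -1.83. With male animals alone the S vs C value was -3.06, from 2 S animals of which 1 is SM2. In bulk tissue, fewer cells that express a gene and less RNA of it per cell cannot be told apart.

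**Figure D1:**
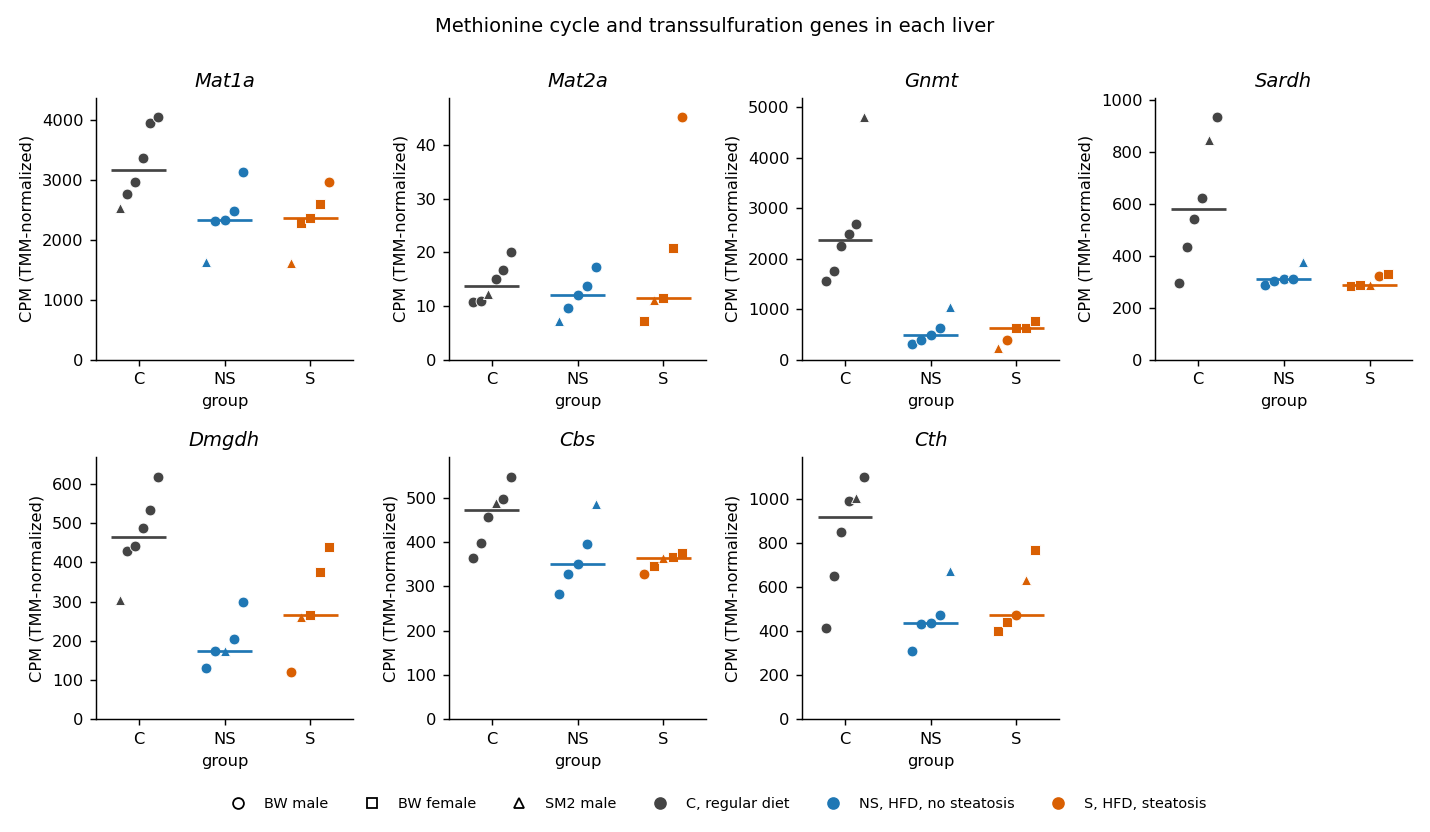
Level of each of the 7 genes in every liver, in TMM-normalized CPM on linear axes that start at 0, for groups C (n = 6), NS (n = 5) and S (n = 5). Each point is 1 animal, with its shape giving stock and sex, and lines mark group medians; the 10 HFD animals lie below all 6 control animals for Gnmt, from 230 to 1046 CPM against 1556 to 4806 CPM.

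Sarcosine, the product of the Gnmt reaction, is demethylated by Sardh, the mitochondrial sarcosine dehydrogenase. Sardh ranged in C from 297 to 936 CPM with a median of 583 CPM (n = 6). In NS it was at 289, 304, 311, 312 and 375 CPM, and in S at 284, 289, 289, 325 and 330 CPM. The HFD animals fell in a narrow band at the bottom of the C range, which they overlapped only through C animal 36001. Its coefficient of variation was 39.7% (C), 10.4% (NS) and 7.33% (S); the difference in spread was not tested.

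The log2 fold change of Sardh was -0.95 (SE 0.23) in NS vs C, or 1.93-fold lower, and -1.02 (SE 0.23) in S vs C, or 2.02-fold lower. Of the S animals 3 of 5, and of the NS animals 1 of 5, lay below every C animal.

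Dmgdh, the mitochondrial enzyme that forms sarcosine from dimethylglycine, ranged in C from 304 to 618 CPM with a median of 465 CPM (n = 6). In NS it was at 132, 173, 173, 203 and 298 CPM, and in S at 121, 261, 266, 376 and 440 CPM. All 5 NS animals lay below all 6 C animals, though by a small margin between NS animal 35987 and the SM2 control 10876. The S animals were spread, with 3 of 5 below every C animal, 1 of these also below every NS animal, and 2 of 5 above every NS animal and inside the C range. The log2 fold change of Dmgdh was -1.26 (SE 0.28) in NS vs C, or 2.4-fold lower, and -0.68 (SE 0.28) in S vs C, or 1.6-fold lower. The S animals above NS were females, 35955 and 35990, and the lowest was the male 36016; with male animals alone the S vs C value was -1.30.

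Cbs, cystathionine beta-synthase, joins homocysteine to serine in the entry step of transsulfuration. It ranged in C from 364 to 548 CPM with a median of 472 CPM (n = 6). In NS it was at 284, 328, 350, 395 and 485 CPM, and in S at 327, 346, 365, 367 and 375 CPM. The groups overlapped, and the S animals lay closest together, with a coefficient of variation of 5.43% against 14.8% in C and 20.8% in NS. The log2 fold change of Cbs was -0.32 (SE 0.15) in NS vs C and -0.36 (SE 0.15) in S vs C.

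Cth, cystathionine gamma-lyase, releases cysteine from cystathionine. It ranged in C from 413 to 1100 CPM with a median of 919 CPM (n = 6). In NS it was at 311, 430, 437, 471 and 670 CPM, and in S at 399, 442, 475, 633 and 766 CPM. Both HFD groups overlapped with C, and 1 animal of each lay below every C animal. The C animal 36001 was the lowest of its group for Gnmt, Sardh, Cbs and Cth alike. The log2 fold change of Cth was -0.85 (SE 0.25) in NS vs C, or 1.8-fold lower, and -0.62 (SE 0.25) in S vs C, or 1.54-fold lower.

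A gene was called when edgeR's quasi-likelihood test gave a Benjamini-Hochberg adjusted p-value under 0.1, over the 12639 genes tested, and a fold change of at least 2. All 7 genes passed the filter on low counts in every group. In NS vs C, 1 of the 7 genes was called, Gnmt, with 0.0712% of all genes tested called (9 genes). With no fold limit the count was again 1 of 7, with 0.0791% of all genes past the adjusted p-value. In S vs C, 2 of the 7 were called, Gnmt and Sardh, with 4.06% of all genes called (513 genes). With no fold limit the count was again 2 of 7, with 10.8% of all genes past the adjusted p-value. Since the list was drawn from these contrasts, the counts are not read further.

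The median log2 fold change of the 7 genes was -0.85 in NS vs C, where that of all genes tested was 0.01, and -0.62 in S vs C, where that of all genes was 0.10. For NS vs C all 7 genes were below 0. For S vs C 6 of 7 were, the exception being Mat2a. The counts called depended on single animals. In NS vs C, 0 of the 7 were called without C animal 35972 or without NS animal 35937, 35963 or 35987, where 4 (0.0317%), 3 (0.0238%), 2 (0.0158%) and 2 (0.0159%) of all genes were. The count was 2 of 7 without C animal 36001 (Gnmt and Sardh), with 7 of all genes (0.0555%), and without S animal 36016 (Gnmt and Dmgdh), with 8 (0.0645%). In S vs C, Sardh was not called without C animal 10876 or 35998 or S animal 35955 or 35990, where 3.36%, 4.13%, 3.91% and 4.35% of all genes were. With sex as a covariate or male animals alone, the 2 genes called in S vs C were Gnmt and Dmgdh, with 6.08% and 5.44% of all genes called. For the level of S both fits rest on the same 2 male S animals.

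**Figure D2:**
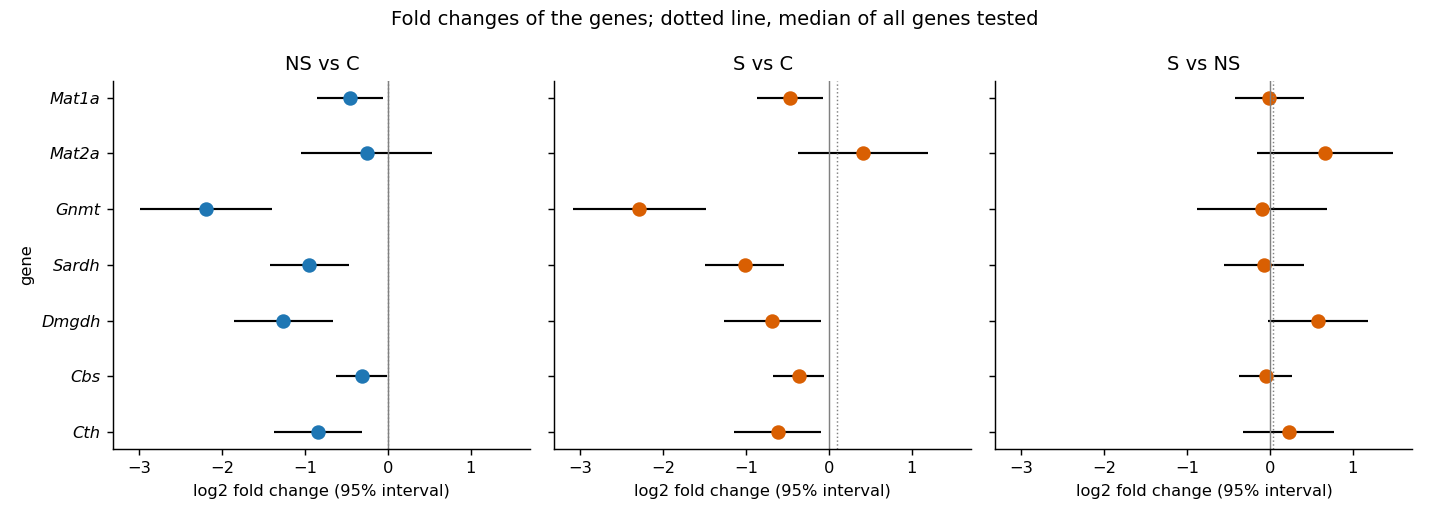
Log2 fold changes of the 7 genes in NS vs C, S vs C and S vs NS with 95% intervals from the edgeR fit; the solid vertical line marks 0 and the dotted line the median of all genes tested. Gnmt lies farthest from 0 in both comparisons with C, at -2.19 and -2.29, and near 0 in S vs NS, at -0.10.

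The comparison of S with NS asks whether HFD livers with steatosis differ from HFD livers without it, and each value in it is the difference of the values in the comparisons above. For Gnmt both were known when the pathway was chosen, and its value is given as a description. Of the 7 genes 0 were called, with 0.00791% of all genes called (1 gene, by either rule). At an unadjusted p-value under 0.05 there were 0 of the 7 genes by edgeR, against 10.9% of all genes, and 1 by DESeq2, against 1273 of 12639. DESeq2 and limma-voom called 0 of the 7, and 71 and 1 of all genes. The median log2 fold change of the 7 genes was -0.01, against 0.04 over all genes.

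Gnmt had a log2 fold change of -0.10 in S vs NS, with a 95% interval of -0.88 to 0.69, and 1 of 5 S animals lay below all NS animals. In the BW animals alone the value was 0.45, with an interval of -0.08 to 0.98, and with male animals alone it was -0.87, with an interval of -1.91 to 0.18. With sex as a covariate it was -0.87 as well, a repeat fixed by the design, since all females were in S. The value was above 0 with library totals (0.04), and without NS animal 10865 (0.25), S animal 10880 (0.10) or S animal 36016 (0.001).

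Dmgdh had the interval that came nearest to lying on one side of 0, with a log2 fold change of 0.58 in S vs NS (95% interval -0.03 to 1.19, adjusted p = 0.471). With male animals alone the value was -0.04. Mat2a was at 0.67 (95% interval -0.16 to 1.49, edgeR adjusted p = 0.539), with 2 of 5 S animals above all NS animals. It was 0.10 without S animal 36016 alone, and -0.25 without both 35990 and 36016. With male animals alone Mat2a was at 1.22 (95% interval 0.33 to 2.12, edgeR adjusted p = 0.235). Cth was at 0.23 (95% interval -0.32 to 0.78), Sardh at -0.07 (-0.56 to 0.42), Cbs at -0.05 (-0.37 to 0.27) and Mat1a at -0.01 (-0.42 to 0.41), with edgeR adjusted p-values between 0.771 and 0.996.

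Variation among animals of the same group was not used in choosing the genes. Log2 CPM of Gnmt was related to that of each of the other 6 genes after the mean of each group had been subtracted, over 16 animals, with two-sided p-values from 100000 permutations of animals within groups. The strongest relation was with Sardh, the enzyme that takes up its product, at a Pearson's r of 0.531 (permutation p = 0.0126) and a Spearman's rho of 0.447 (permutation p = 0.0821). Adjusted over the 6 relations, the p-values were 0.0757 and 0.343, so the relation did not pass 0.05. For r it did with library totals (0.584, adjusted permutation p = 0.0465), in males (0.664, adjusted permutation p = 0.034) and without S animal 35955 (0.578, adjusted permutation p = 0.0469). Without the 2 animals farthest from the median of Gnmt, S animal 10880 and NS animal 10865, r was 0.573, and in the BW animals alone it was 0.446. Taken group by group, it was 0.832 (C, n = 6), 0.757 (NS, n = 5) and 0.018 (S, n = 5).

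The r of Gnmt was 0.412 with Cbs, 0.309 with Cth and -0.348 with Mat2a, and their Spearman's rho was 0.356, 0.338 and -0.371. The r of Gnmt was -0.06 with Mat1a and -0.03 with Dmgdh, and their rho was 0.04 and -0.04. The permutation p-values of these 5 genes lay between 0.141 and 0.918 for r and between 0.199 and 0.901 for rho, and adjusted over the 6 relations between 0.396 and 0.918 and between 0.343 and 0.901. Without the 2 animals named above, the r was 0.313 with Cbs, 0.329 with Cth, -0.44 with Mat2a, -0.14 with Mat1a and -0.02 with Dmgdh.

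All 21 pairs of the 7 genes were then examined in the same way, a step chosen after the data were seen. Of the pairs among Cbs, Cth and Sardh, all 3 had an r above 0 over the 16 animals. Cbs and Cth had an r of 0.746 (permutation p = 0.00167, adjusted p = 0.0187 over 21 pairs) and a rho of 0.665 (permutation p = 0.00982, adjusted p = 0.103). Cth and Sardh had an r of 0.708 (permutation p = 0.00383, adjusted p = 0.0201) and a rho of 0.503 (permutation p = 0.0752, adjusted p = 0.287). Cbs and Sardh had an r of 0.668 (permutation p = 0.00267, adjusted p = 0.0187) and a rho of 0.591 (permutation p = 0.0418, adjusted p = 0.22).

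Group by group, the r of Cbs with Cth was 0.915 (C), 0.97 (NS) and -0.29 (S), that of Cth with Sardh 0.953, 0.721 and -0.537, and that of Cbs with Sardh 0.918, 0.79 and -0.316, so that S differed in sign from C and NS; these values were not tested. The relations leaned on C animal 36001, which was low in all 3 genes. Without it r was 0.668 for Cbs with Cth, 0.467 for Cth with Sardh and 0.557 for Cbs with Sardh, with permutation p-values adjusted over 21 pairs of 0.112, 0.176 and 0.112. Without the 2 animals farthest from the median of the first gene of the pair, r was 0.654, 0.488 and 0.812 in the same order. In the BW animals alone r was 0.682, 0.709 and 0.717, each with an adjusted permutation p of 0.145.

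The remaining pair past an adjusted p of 0.05 ran in the opposite direction. Mat2a and Cbs had an r of -0.536 (permutation p = 0.00218, adjusted p = 0.0187) and a rho of -0.626 (permutation p = 0.00371, adjusted p = 0.0779), with r at -0.678 without the 2 animals farthest from the median of Mat2a. Group by group it was -0.742 (C), -0.722 (NS) and -0.932 (S). With library totals in place of TMM scaling it was -0.31, with an adjusted permutation p of 0.289, and in the BW animals alone -0.45, with an adjusted permutation p of 0.145. The adjusted permutation p also exceeded 0.05 for Mat2a with Cbs without C animal 35975, 35998 or 36001 or NS animal 10865, and it lay between 0.0504 and 0.0933. For all 3 pairs of Cbs, Cth and Sardh it exceeded 0.05 without those same animals, and for Cth with Sardh also without C animal 10876 or 36007, and it lay between 0.0504 and 0.176.

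**Figure D3:**
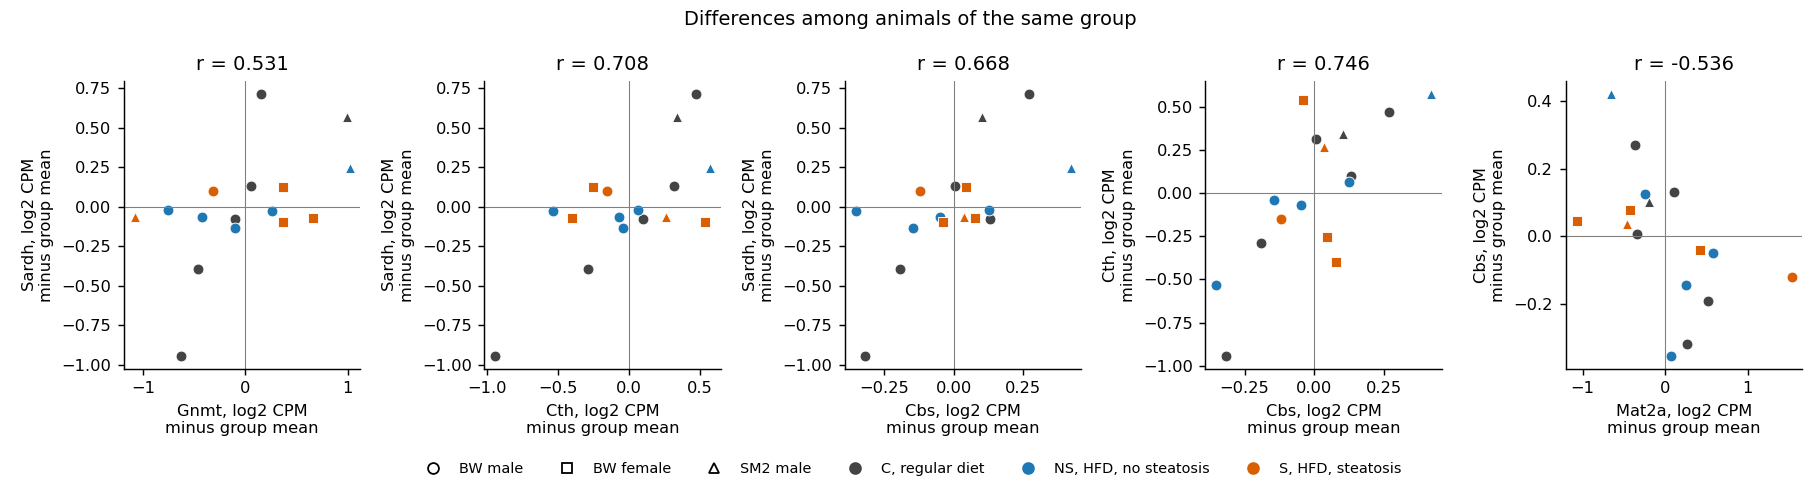
Log2 CPM of pairs of genes in 16 animals after the mean of each group was subtracted; both axes are in log2 units, each point is 1 animal and its shape gives stock and sex. Pearson's r stands above each panel, from 0.531 for Gnmt with Sardh to 0.746 for Cbs with Cth and -0.536 for Mat2a with Cbs; C animal 36001 is the point at the lower left of the Cth, Cbs and Sardh panels.

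The genes whose levels were most like those of Gnmt over all 16 animals were ranked by Pearson's r of log2 CPM among 8182 other genes with a mean of at least 5 CPM. This r holds the difference between groups and is a description. The highest belonged to Gcdh (0.904), Gde1 (0.885), Pcca (0.868), Sardh (0.838) and Uox (0.836). The lowest belonged to Fads2 (-0.884), Prss35 (-0.88), Dnmbp (-0.861), Me1 (-0.832) and Gpi1 (-0.825). Sardh was thus the gene ranked 4 of 8182, while Cbs ranked 48, Cth 93, Dmgdh 185, Mat1a 404 and Mat2a 5051. Mean levels of Gcdh were 1116 CPM in C, 694 CPM in NS and 732 CPM in S, and those of Fads2, a fatty acid desaturase, were 575, 1630 and 1369 CPM.

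After group means were subtracted, other genes headed the ranking. The highest r with Gnmt over the 16 animals belonged to Lxn (0.881), Stra6l (0.82), Morc2a (0.819), Gde1 (0.816) and A1bg (0.784), and the lowest to Ugt2a3 (-0.81), Atp6ap2 (-0.789), Car3 (-0.77), Mras (-0.769) and Hgs (-0.764). Gde1 was thus in the first 5 of both rankings. Mean levels of A1bg were 0.832 CPM in C, 5.54 CPM in NS and 140 CPM in S, and those of Ugt2a3 648, 497 and 44.6 CPM. Subtracting group means leaves sex within S, where the females lay above the males for Gnmt, and its part in these r was not tested. Sardh ranked 95, Cbs 306, Cth 716, Dmgdh 4254, Mat1a 4644 and Mat2a 7499 of 8182.

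Other genes of the pathway were taken from 7 lists with 116 genes, of which 102 were tested. In NS vs C, 0 of the 102 were called by edgeR, with 17 (16.7%) at an unadjusted p-value under 0.05, against 8.29% of all genes; DESeq2 called 1, Ethe1, with 53 over all genes, and limma-voom 0. In S vs C, 10 of the 102 (9.8%) were called, 6 higher and 4 lower, against 4.06% of all genes tested. With no fold limit 23 of the 102 (22.5%) passed the adjusted p-value, 7 higher and 16 lower, against 10.8% of all genes. In S vs NS, 0 were called by edgeR, with 15 (14.7%) at an unadjusted p-value under 0.05, against 10.9% of all genes; DESeq2 called 1, Nnmt, with 71 over all genes, and limma-voom 0. The median log2 fold change of the 102 genes was -0.07, -0.11 and -0.04 in NS vs C, S vs C and S vs NS, against 0.01, 0.10 and 0.04 over all genes.

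Leaving out single animals moved the count of 10 in S vs C to between 4 and 11. It was 4 without S animal 36016, where 245 genes (1.97%) were called over all genes, and 6 without C animal 35975, 36001 or 36007, where 219 (1.73%), 247 (1.96%) and 192 (1.52%) were. With both 35990 and 36016 left out, 7 of the listed genes were called, 3 of them among the 10, Nnmt and Papss2 included, and 191 genes (1.55%) over all genes tested.

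Nnmt, which methylates nicotinamide, fell in S, with levels of 18.9, 25.7, 37.7, 48.8 and 52.1 CPM against 109 to 350 CPM in C. All 5 S animals lay below all 6 C animals, and NS ranged from 25.6 to 149 CPM, with 1 animal among the S levels. Its log2 fold change in S vs C was -2.39 (SE 0.41, edgeR adjusted p = 0.0125). In S vs NS it was -1.52 (edgeR adjusted p = 0.289), the pathway gene that DESeq2 called there. Mettl7b, a methyltransferase of thiols, fell by 1.07 on the log2 scale (SE 0.25, edgeR adjusted p = 0.032), with 3 of 5 S animals below all C animals. Without S animal 36016 its log2 fold change was -0.98, under the fold limit, as it was with stock as a covariate (-0.98) and library totals (-0.83), and without 35990 and 36016 it was -1.02 (edgeR adjusted p = 0.108).

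Of the 13 SAM-dependent methyltransferases tested, 3 were called in S vs C, against 4.06% of all genes, and the median of the list was -0.10. Dnmt3b, a DNA methyltransferase, was called higher at a log2 fold change of 2.1 (SE 0.71, edgeR adjusted p = 0.0922). The call rested on few counts, 4 to 43 in S and 2 to 7 in C, and the SM2 animals 10865 in NS and 10880 in S stood above the rest of their groups at 2.9 and 5.24 CPM. Without 10880 the log2 fold change was 0.81 (adjusted p = 0.427). The call was also absent without C animal 35972, 35975, 35998, 36001 or 36007, NS animal 35937 or 35963, or S animal 35982 or 36016, with edgeR adjusted p-values from 0.105 to 0.176, and without 35990 and 36016 together. Pemt, which makes phosphatidylcholine with SAM, was singled out after its values were seen; its log2 fold change was -0.65 (SE 0.18, edgeR adjusted p = 0.0497), under the fold limit.

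Among the partners of the cycle, Adk, which removes the adenosine released in the cycle, and Aldh7a1, which forms betaine, had log2 fold changes of -0.41 and -0.71 (edgeR adjusted p = 0.0803 and 0.0683), under the fold limit; both were named after their values were seen.

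The list for cysteine, taurine, sulfide and glutathione held 4 called genes of 22 in S vs C, 2 higher and 2 lower, against 4.06% of all genes, with a list median of -0.18. Gclc, the catalytic subunit of the enzyme that starts glutathione synthesis, rose by a log2 fold change of 1.09 (SE 0.23, edgeR adjusted p = 0.0222), with 4 of 5 S animals above all C animals. The exception was the SM2 animal 10880, at 445 CPM. Without S animal 36016 the value was 0.87, under the fold limit, and without 35990 and 36016 it was 0.72 (edgeR adjusted p = 0.112). Gclm, its partner subunit, was in the opposite direction at -0.68 (SE 0.19, edgeR adjusted p = 0.0497), under the fold limit, and was named after its values were seen.

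Papss2, which makes the activated sulfate used by sulfotransferases, fell by 1.07 on the log2 scale in S vs C (SE 0.18, edgeR adjusted p = 0.0125). It was at 256, 275, 307, 335 and 387 CPM in S, below all NS animals (401 to 654 CPM) and all C animals (437 to 804 CPM). It was called with each animal left out in turn, but not with library totals (-0.83, under the fold limit). In S vs NS the log2 fold change was -0.75 (edgeR adjusted p = 0.289).

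Ethe1, a mitochondrial enzyme of sulfide oxidation, fell by 1.65 on the log2 scale (SE 0.37, edgeR adjusted p = 0.0291), with 4 of 5 S animals below all C animals. In NS vs C, where all 5 NS animals lay below all 6 C animals, its log2 fold change was -1.61 (edgeR adjusted p = 0.184). It was called there with stock as a covariate, in BW animals alone and by DESeq2, where 0.229%, 0.0892% and 0.419% of all genes were. The SM2 control 10876 was at 191 CPM, with the next C animal at 86.9 CPM. With male animals alone the S vs C value was -1.18 (adjusted p = 0.186), and without 35990 and 36016 it was -1.60 (adjusted p = 0.112). Sqor, the step before it, was singled out after its values were seen, with -0.98 in S vs C (SE 0.16, edgeR adjusted p = 0.0125) and -0.77 in NS vs C (edgeR adjusted p = 0.136).

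Slc6a6, the taurine transporter, was called higher in S vs C at 1.86 (SE 0.55, edgeR adjusted p = 0.0646), on 9 to 70 counts in S and 3 to 16 in C. Its highest levels, 6.68 and 9.01 CPM, were in 35990 and 36016, and without both animals the value was 0.61 (adjusted p = 0.567). It was also not called without C animal 35975, 36001 or 36007, or without 35990 or 36016 alone, with adjusted p-values from 0.104 to 0.166.

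Of the 9 carriers that can move methionine across membranes, 2 were called higher in S vs C, where 391 of 12639 genes were. Slc7a5 had a log2 fold change of 4.10 (SE 1.32, edgeR adjusted p = 0.0807). Its counts were 0 to 8 in C, and its highest levels were in the SM2 animals, 12.4 CPM in NS and 23.5 CPM in S, with the next S animal at 4.32 CPM. Without S animal 10880 the value was 2.28 (adjusted p = 0.266), and the call was also absent without any 1 of the C animals or S animal 36016, with adjusted p-values from 0.106 to 0.156. Without 35990 and 36016 together it was 4.50 (adjusted p = 0.132).

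Slc43a2 was the other carrier called, at 1.38 (SE 0.46, edgeR adjusted p = 0.0883), with 4 of 5 S animals above all C animals on 15 to 71 counts against 6 to 15. It was not called without any 1 of the C animals other than 35998 or any 1 of the S animals other than 10880, with adjusted p-values up to 0.184. With male animals alone it was at 0.63 (adjusted p = 0.598), and without 35990 and 36016 at 1.13 (adjusted p = 0.258).

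**Figure D4:**
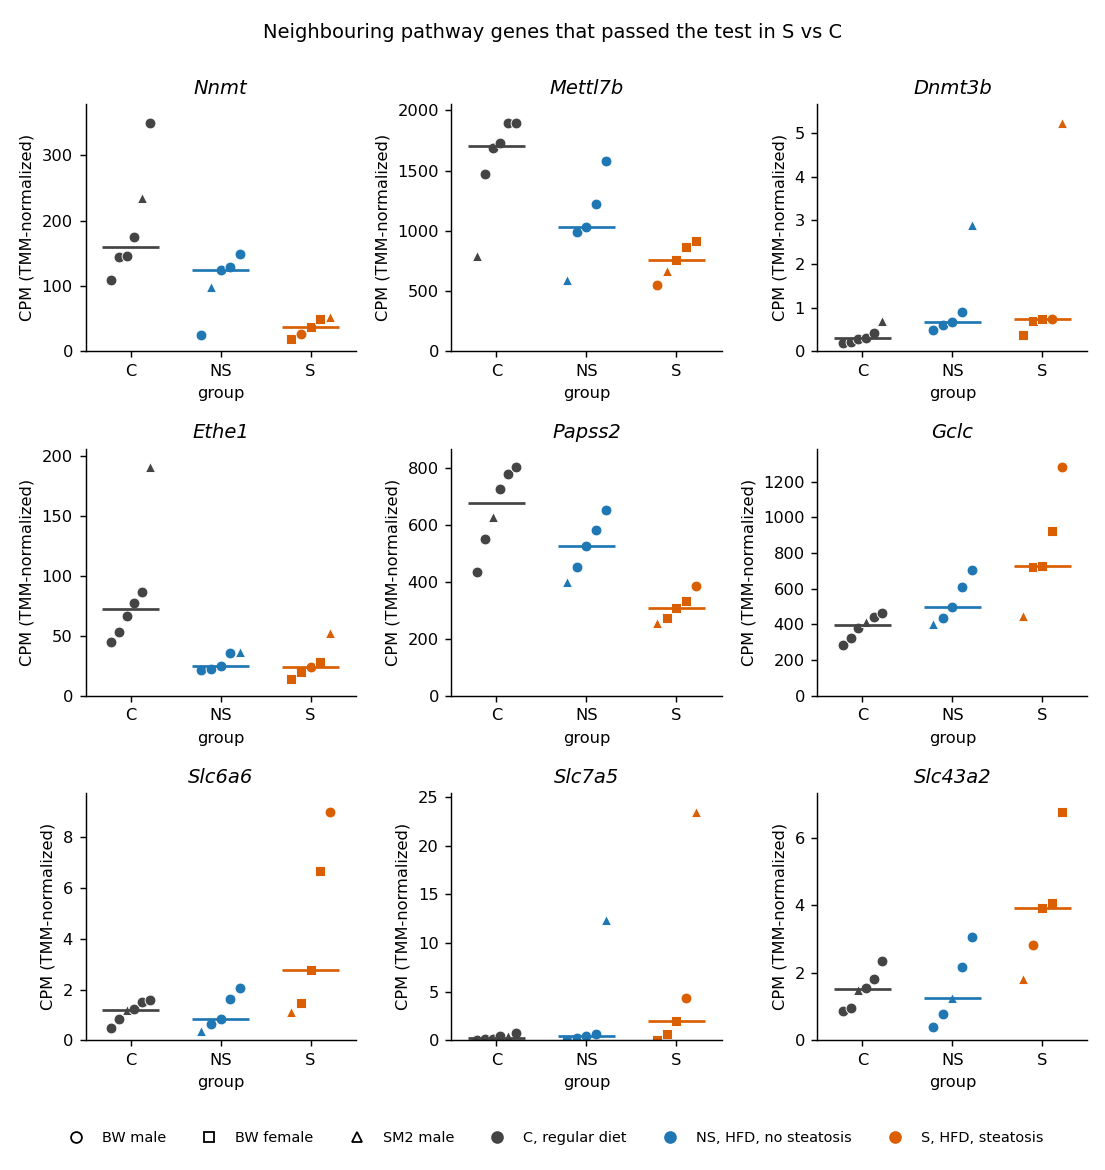
Levels of 9 listed genes called in S vs C, in every liver, in TMM-normalized CPM on linear axes that start at 0. Each point is 1 animal, with its shape giving stock and sex, and lines mark group medians; Papss2 lies at 256 to 387 CPM in S, below all NS and C animals, and the highest points for Slc7a5 and Dnmt3b in NS and S are the SM2 animals.

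The folate, serine and polyamine lists held 0 called genes by edgeR in any of the 3 comparisons. With no fold limit 1 folate gene was higher and 4 were lower past the adjusted p-value in S vs C, and 1 serine and 1 polyamine gene were lower, against 10.8% of all genes. These were Ggh (-0.94, edgeR adjusted p = 0.0368), Gcsh (-0.66, 0.0423), Slc25a32 (-0.63, 0.0497), Slc19a1 (-0.74, 0.0799) and Atic (0.39, 0.0964), with Sms of the polyamine list (-0.70, 0.0387) and Agxt of the serine list, whose values follow. With sex as a covariate or male animals alone, where S rests on the same males, Ggh, Tyms and Agxt were called. Of all genes 6.08% and 5.44% were called in these fits.

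At an unadjusted p-value under 0.05 in S vs C there were 8 of 24 folate genes, 2 of 11 serine and glycine genes and 1 of 9 genes of polyamine synthesis and methionine salvage (33.3%, 18.2% and 11.1%), against 23.8% of all genes; DESeq2 called 1, 0 and 0 and limma-voom 0, 1 and 0. Aldh1l1 and Mthfd1 had the highest means of the folate list over the 16 animals, Mthfd1 with a mean below that of Ftcd in C and NS. Aldh1l1, which oxidizes formyl-folate, was at 1921 ± 381 CPM (SD, n = 6) in C, 1180 ± 293 CPM (SD, n = 5) in NS and 1271 ± 362 CPM (SD, n = 5) in S. All 5 NS and 4 of 5 S animals lay below every C animal, though by a very small margin. NS animal 35930 was at 1509 CPM and S animal 36016 at 1506 CPM, against 1511 CPM in C animal 10876. The log2 fold change of Aldh1l1 against C was -0.70 for NS and -0.60 for S (edgeR adjusted p = 0.433 and 0.116).

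Mthfd1, at 569 ± 128 CPM (SD, n = 6) in C and 801 ± 250 CPM (SD, n = 5) in S, had a log2 fold change of 0.49 in S vs C (edgeR adjusted p = 0.161). Of the serine and glycine genes, Agxt, which turns glyoxylate into glycine, was at 1212 ± 249 CPM in C (SD, n = 6) and 664 ± 344 CPM in S (SD, n = 5), a log2 fold change of -0.87 (edgeR adjusted p = 0.08) under the fold limit. Sds, serine dehydratase, was at -0.26 (edgeR adjusted p = 0.642). Adi1 and Azin1, of highest mean in the polyamine and salvage list, were at -0.31 and 0.05 (edgeR adjusted p = 0.552 and 0.935).

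All 9 periportal markers had a log2 fold change below 0 against C in NS and likewise in S, with medians of -0.28 and -0.47; by edgeR 0 and 4 of 9 passed the adjusted p-value and 0 reached the fold limit. At an unadjusted p-value under 0.05 there were 3 and 4 (33.3% and 44.4%), against 8.29% and 23.8% of all genes, and DESeq2 and limma-voom called 0 in either comparison. Summed, with Cyp2f2 of highest mean over the 16 animals, Ass1 in C alone, and none at 0, they stood at 16860 to 24860 CPM in C with C animal 36001 the lowest. They stood at 11900, 12320, 14290, 18060 and 20890 CPM in NS and at 10790, 11730, 14210, 15580 and 17360 CPM in S. The part of these markers in the levels of Gnmt, Sardh, Dmgdh, Cbs and Cth was not tested.

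Summed pericentral markers ranged from 30290 to 47990 CPM in C, from 21410 to 36310 CPM in NS and from 17900 to 31320 CPM in S. Most of each sum was Cyp2e1, with means of 28230 CPM (C), 22370 CPM (NS) and 17420 CPM (S). The list itself was split, with 5 of 9 markers below 0 in NS vs C (median 0) and 5 of 9 in S vs C (median -0.04). Of the 9, 1, Slc1a2, was called lower in S vs C (-1.38), but not without 35990 and 36016 (-1.28, edgeR adjusted p = 0.118). Of the pericentral markers in S vs C, DESeq2 called 2 and limma-voom 1; for NS vs C the counts were 1 and 0. Among proliferation markers 3 of 5 were called higher in S vs C by edgeR, Top2a, Cdk1 and Ccna2, 3 by DESeq2 and 0 by limma-voom; in S vs NS edgeR called 0, with 4 at an unadjusted p-value under 0.05, DESeq2 3 and limma-voom 0. Without 35990 and 36016, 0 of 5 were called, and the log2 fold changes of the 3 went from 3.78, 1.98 and 3.17 to 0.73, 0.42 and -0.46. Of 7 stellate cell markers, 1 was below 0 in S vs C, Dcn, and the median was 0.62; in NS vs C 6 were below 0, with a median of -0.39. Dcn was called lower in S vs C, with both animals (-1.05) and without them (-1.24). Col1a1 was called higher at 5.57, from 36016, and was at -0.49 without both animals (edgeR adjusted p = 0.608); DESeq2 and limma-voom each called 1 stellate marker in S vs C. Of all genes in S vs C, edgeR called 4.06%, DESeq2 4.35% and limma-voom 2.41%, and edgeR 1.55% without both animals; of all genes in S vs NS they called 0.00791%, 0.562% and 0.00791%, and of those in NS vs C 0.0712%, 0.419% and 0.0396%.

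Macrophage, lymphocyte, endothelial and bile duct lists and the single adipocyte marker tested held 0 called genes in each comparison by edgeR, DESeq2 and limma-voom, and at an unadjusted p-value under 0.05 by edgeR there was 1 lymphocyte and 1 endothelial marker in S vs C and 1 and 2 in S vs NS. Hepatocyte markers held 0 called by edgeR, and 1 of 8, Apoa1, in S vs C without 35990 and 36016. With both animals Apoa1 was at 0.96 (edgeR adjusted p = 0.0575). Of these markers 6 of 8 were below 0 in S vs C, with a median of -0.40, 3 lower and 1 higher past the adjusted p-value, and 5 of 8 (62.5%) at an unadjusted p-value under 0.05, against 23.8% of all genes. In NS vs C 5 of 8 were below 0, with a median of -0.12, and DESeq2 called 1.

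**Figure D5:**
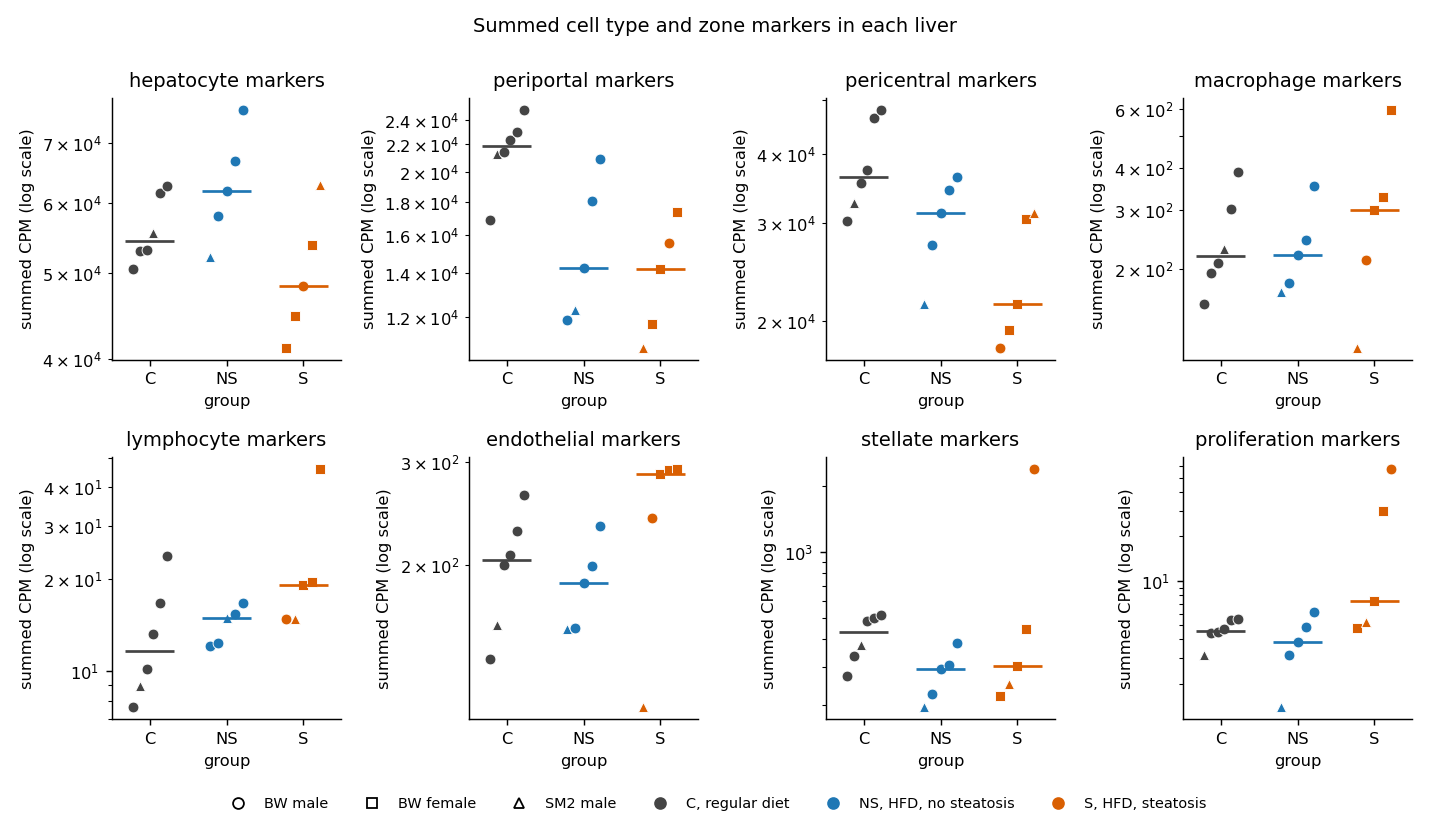
Summed CPM of 8 marker lists in every liver, on log axes, with 1 point per animal, its shape giving stock and sex, and lines at group medians. Periportal sums are 10790 to 20890 CPM in HFD animals and 16860 to 24860 CPM in C, and S animals 35990 and 36016 are highest in proliferation markers, at 29.6 and 57.3 CPM.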

How the data were processed

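The paper's methods state that liver RNA was aligned by STAR 2.7.2 to HU_Pman_2.1 and that only uniquely mapped reads entered the featureCounts tables. The authors deposited these counts raw, under gene symbols. The strand setting and the conversion to symbols are not given in the sources used here, so that overlapping genes and close paralogs such as Mat1a and Mat2a are uncertain. All 16 columns were matched to animals by their numbers. The genes and lists were chosen with earlier results of these data known.

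The quasi-likelihood test of edgeR 4.0.16 (R 4.3.3) was run on TMM-scaled counts of genes that reached 0.5 CPM in any animal, in 1 fit of the 3 groups without covariates. Benjamini-Hochberg adjustment ran over all genes tested. A called gene had an adjusted p-value below 0.1 together with a change of 2-fold or more. Relations within groups used log2 CPM with a prior count of 2. They were computed in Python 3.11.15 (numpy 2.4.6; pandas 2.3.3; scipy 1.17.1), and matplotlib 3.10.9 drew the figures. Both steps were tested on simulated data.

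The genes named are those on the list, the called genes of each pathway list (up to 6 per list and comparison, or else the 2 most abundant) and the 5 of highest and lowest r with Gnmt; 1 called gene is counted but not described. The alternatives were DESeq2 1.42.0, limma 3.58.1 (voom), RLE scaling, library totals, other filters, fits of only the groups compared, stock or sex as a covariate, BW or male animals alone, other thresholds and each animal left out. Added after the data were seen were the threshold of 0.1 without a fold limit, the joint removal of S animals 35990 and 36016, and the 21 pairs. The p-values of the fits set group differences against the spread between animals, and those of the relations come from exchanging animals within groups. That spread includes differences of stock and, in S, of sex.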

Additional observations from a re-analysis of the deposited data

Results flagged for a closer look

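In 7 of the 51 combinations of gene and group examined, for the 7 listed genes and the 10 called pathway genes, 1 animal lay far from the others of its group by Dixon's criterion at 95%; chance alone would do so in about 1 in 20 for genes taken without regard to their values. The 10 pathway genes were taken by their calls, and Gnmt by its difference from C, so that this rate does not apply to them. All 7 were the highest of their group and all 7 were SM2 animals. In C, animal 10876 had a Gnmt level of 4806 CPM, with the next at 2679 CPM, and an Ethe1 level of 191 CPM, with the next at 86.9 CPM. In NS, animal 10865 had 375 CPM of Sardh (next 312 CPM), 2.9 CPM of Dnmt3b (next 0.893 CPM) and 12.4 CPM of Slc7a5 (next 0.691 CPM). In S, animal 10880 had 5.24 CPM of Dnmt3b (next 0.751 CPM) and 23.5 CPM of Slc7a5 (next 4.32 CPM). Within a group, which holds 1 SM2 animal, stock and single animal cannot be told apart.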

How the results depend on the processing

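The log2 fold changes of the 7 genes against C kept their sign under every alternative, except that of Mat2a in S vs C. For Gnmt they ranged from -2.54 to -1.92 in NS vs C and from -3.06 to -1.83 in S vs C. With library totals the median log2 fold change of all genes shifted from 0.01 to 0.11 in NS vs C, from 0.10 to 0.33 in S vs C and from 0.04 to 0.17 in S vs NS. The cause of the changes below was not tested.

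Of the 7 genes, 1 was called in NS vs C, with 0.0712% of all genes called. The count was 2 with DESeq2 (0.419%), only the 2 groups compared (0.107%), stock as a covariate (0.229%) or sex as a covariate (0.103%). It was also 2 without S animals 35990 and 36016 (0.0895%), and 0 to 2 with each animal left out. In S vs C the count of 2 was 1 with library totals, filterByExpr, BW animals alone, limma-voom or without both S animals. It was 1 to 2 with each animal left out. With sex as a covariate or males alone, where S rests on the same males, it was 2, with Dmgdh in place of Sardh. The log2 fold change of Sardh was -0.999 in both fits and with filterByExpr, against -1.017. In males alone the adjusted p-value of Sardh was also above 0.1. Pathway genes called in NS vs C went from 0 to 1 with DESeq2, stock as a covariate or BW animals alone, and were 0 to 1 with each animal left out. In S vs NS they went from 0 to 1 with DESeq2, which called 0.562% of all genes there. In S vs C they went from 10 to 23 without a fold limit (10.8% of all genes), 15 with sex as a covariate (6.08%) and 14 in males (5.44%). They were 4 to 11 with each animal left out.

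In S vs NS the log2 fold change changed sign for Mat1a (-0.007) with DESeq2 (0.008), RLE scaling (0.008), library totals (0.16), filterByExpr (0.007), only the 2 groups (0.003) and BW animals (0.01), and ranged from -0.116 to 0.115 with each animal left out. That of Gnmt (-0.095) was 0.043 with library totals, 0.063 with stock as a covariate, 0.45 in BW animals and -0.269 to 0.248 with each animal left out. That of Cbs (-0.049) was 0.076 with library totals, 0.076 in BW animals, 0.01 without both S animals and -0.129 to 0.071 with each animal left out. That of Sardh (-0.07) was 0.065 with library totals and 0.029 in BW animals. That of Dmgdh (0.581) was -0.037 with sex as a covariate and -0.036 in males, and that of Mat2a (0.668) was -0.252 without both S animals.

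Within groups, r of Gnmt with Mat1a (-0.062) was 0.043 with library totals, 0.243 in BW animals and -0.449 to 0.251 with each animal left out. With Dmgdh (-0.033) it was 0.051, 0.31 and -0.194 to 0.157 in the same order, and -0.57 in males (adjusted permutation p = 0.199). With Sardh (0.531) it was 0.584 with library totals (adjusted permutation p = 0.0465), 0.664 in males (adjusted permutation p = 0.034), 0.578 without S animal 35955 (adjusted permutation p = 0.0469) and 0.411 to 0.59 with each animal left out.

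Counting each result under each alternative, counts of genes called stayed within 1.5 times in 150, were higher in 13 and lower in 17. Log2 fold changes that were tested stayed in 391, lost the call in 58 and changed sign in 25. Those of the 7 genes against C, where no test is read, moved by over 1 SD between animals in 6 and by less in 386; their calls are counted above. Values of r stayed in 154, lost the threshold in 23, gained it in 3 and changed sign in 10. Mat2a, Dnmt3b, Slc6a6, Slc7a5 and Slc43a2 are limited by their low counts.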
